A study of Mus musculus with 71 samples.

Results

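The neurotrophins and their receptors were followed across 3 regions of the mouse reward circuit after cocaine self-administration. The group holds 6 genes, chosen by name from the 37681 genes of each table: the ligands Bdnf and Ntf3, the Trk receptors Ntrk2 and Ntrk3, the pan-neurotrophin receptor Ngfr and the sorting receptor Sort1. RNA-seq was measured in 71 libraries of total RNA from micro-punches of the nucleus accumbens (NAc), ventral tegmental area (VTA) and prefrontal cortex (PFC). Wild-type C57BL/6 mice, given as adult C57BL/6J of either sex in the study's methods, had self-administered intravenous cocaine or saline and were then kept in abstinence for 1 or 28 days. These 12 groups hold 6 libraries each, except 5 for the saline VTA at 28 days. All mice, saline controls included, had first been trained to work for food pellets after a period of food restriction and carried a jugular catheter, so the saline groups are not naive animals. The labels do not tie a library to an animal, and p-values measure the spread between libraries.

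Neurotrophins are secreted growth factors that are made as precursors and cleaved to a mature form. Mature BDNF binds the receptor tyrosine kinase TrkB, the product of Ntrk2, and NT-3, the product of Ntf3, binds TrkC, the product of Ntrk3. Trk receptors signal through adaptor proteins to the Ras-ERK, PI3K-AKT and phospholipase C gamma pathways. The product of Ngfr, the low-affinity receptor p75NTR, binds all neurotrophins and, together with sortilin, the product of Sort1, forms a receptor for the uncleaved precursors. In this circuit BDNF is well known as a protein that cortical and midbrain neurons carry along their axons to the NAc, while Ntrk2 is expressed by neurons and, as a truncated form without the kinase domain, by astrocytes.

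The counts were made per gene and sum all transcripts of it. Bdnf (ENSMUSG00000048482, mm9 chr2:109514857-109567204, plus strand) has 10 annotated transcripts, each with its own 5' exon or splicing and most with the same 249 codons. RefSeq (GRCm38.p6) gives it 7 start sites. The 50 bases before each of them are printed because these are the separate promoters whose output the Bdnf counts merge. Each stretch matched mm9 once and overlapped no annotated exon. All lie on the plus strand, and capitals mark CGTCA, the core motif of the cAMP response element through which CREB acts.

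Bdnf start 1, chr2:109514807-109514856: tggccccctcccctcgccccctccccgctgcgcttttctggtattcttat
Bdnf start 2, chr2:109517139-109517188: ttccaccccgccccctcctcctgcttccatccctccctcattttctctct
Bdnf start 3, chr2:109532543-109532592: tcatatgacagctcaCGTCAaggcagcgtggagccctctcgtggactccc
Bdnf start 4, chr2:109533134-109533183: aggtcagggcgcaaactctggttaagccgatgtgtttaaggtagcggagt
Bdnf start 5, chr2:109534516-109534565: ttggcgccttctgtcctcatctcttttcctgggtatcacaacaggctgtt
Bdnf start 6, chr2:109549490-109549539: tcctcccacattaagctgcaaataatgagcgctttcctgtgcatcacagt
Bdnf start 7, chr2:109563028-109563077: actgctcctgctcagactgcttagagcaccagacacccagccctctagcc

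The core motif begins 35 bases before the third start. It was searched on both strands in windows of 300 bases, 250 before and 50 after each start, and 4 of the 6 genes had windows. Of the 11 windows of these genes, 1 held CGTCA, against 20.8% of all 32851 windows, and none held the full element TGACGTCA, which 1.79% of all windows hold and which contains the core motif.

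The other genes are on separate chromosomes. Ntf3 (ENSMUSG00000049107) lies at mm9 chr6:126051431-126116762 on the minus strand with 2 transcripts, and Ngfr (ENSMUSG00000000120) at chr11:95430132-95449049 on the minus strand with 1. Ntrk2 (ENSMUSG00000055254, chr13:58907957-59235331, plus strand) has 5 coding transcripts of 455 to 821 codons. Ntrk3 (ENSMUSG00000059146, chr7:85337248-85723294, minus strand) has coding transcripts of 825 and 612 codons. The shorter Ntrk2 and Ntrk3 transcripts include receptors without a kinase domain, which a count per gene cannot separate from the full-length receptors. Sort1 (ENSMUSG00000068747, chr3:108087009-108164429, plus strand) shares exon sequence with an antisense gene, Gm12523, and because the strand used in counting is not given in the sources used here, reads of that gene cannot be told apart from those of Sort1.

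The libraries held between 20971967 and 49700932 reads in genes, taken from the deposited counts or recovered from RPKM. Levels are CPM, the counts scaled to a common library size, in the NAc at 1 day and in all regions at 28 days, and RPKM, which is also scaled to transcript length, in the VTA and PFC at 1 day. Markers matched the labelled regions, but some libraries also held markers of another region. In saline PFC library 4 at 28 days the 7 medium spiny neuron markers summed to 2130 CPM, against 205 to 249 CPM in the other saline PFC libraries. Its 7 cortical excitatory markers summed to 1510 CPM, against 2170 to 2410. The same cortical markers summed to 12.5 to 951 CPM over the NAc libraries of 1 day and to 14.1 to 658 CPM over those of 28 days. The 7 dopamine neuron markers summed to 1130 to 5600 CPM in the VTA at 28 days and to at most 39.5 CPM in the NAc and PFC, and Pitx3 was at 0 in every NAc and PFC library at 1 day. In bulk tissue, fewer cells of a type and less RNA per cell cannot be told apart.

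Ntrk2 and Sort1 were the most abundant of the 6 transcripts in every region, and the ligands and Ngfr were scarce. Levels between genes were compared per kilobase of transcript in the saline libraries at 28 days, with the CPM scaled over the 3 regions together. In the NAc the mean level was 76.4 ± 5.01 CPM per kb for Ntrk2 and 71.0 ± 5.56 for Sort1 (SD, n = 6). The mean of Ntrk3 was 15.5 ± 1.67, that of Ngfr 1.17 ± 0.322, that of Bdnf 0.597 ± 0.405 and that of Ntf3 0.169 ± 0.198 CPM per kb. The ranges of mean ± SD of Ntrk2 and Sort1 overlapped there. In the VTA Ntrk2 was at 92.2 ± 14.0, Sort1 at 46.3 ± 9.36 and Ntrk3 at 11.5 ± 3.56 CPM per kb (SD, n = 5). There Bdnf (4.04 ± 1.73), Ntf3 (3.31 ± 2.06) and Ngfr (2.3 ± 0.899) lay within each other's spread. In the PFC, Sort1 (91.2 ± 3.97) and Ntrk2 (90.0 ± 6.67) could not be ordered, and Ntrk3 (14.5 ± 0.951), Bdnf (4.87 ± 1.19), Ntf3 (0.888 ± 0.414) and Ngfr (0.607 ± 0.149) followed (SD, n = 6). The ratio of the mean per-kilobase levels of Ntrk2 to Bdnf was 128 in the NAc, 22.8 in the VTA and 18.5 in the PFC.

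**Figure D1:**
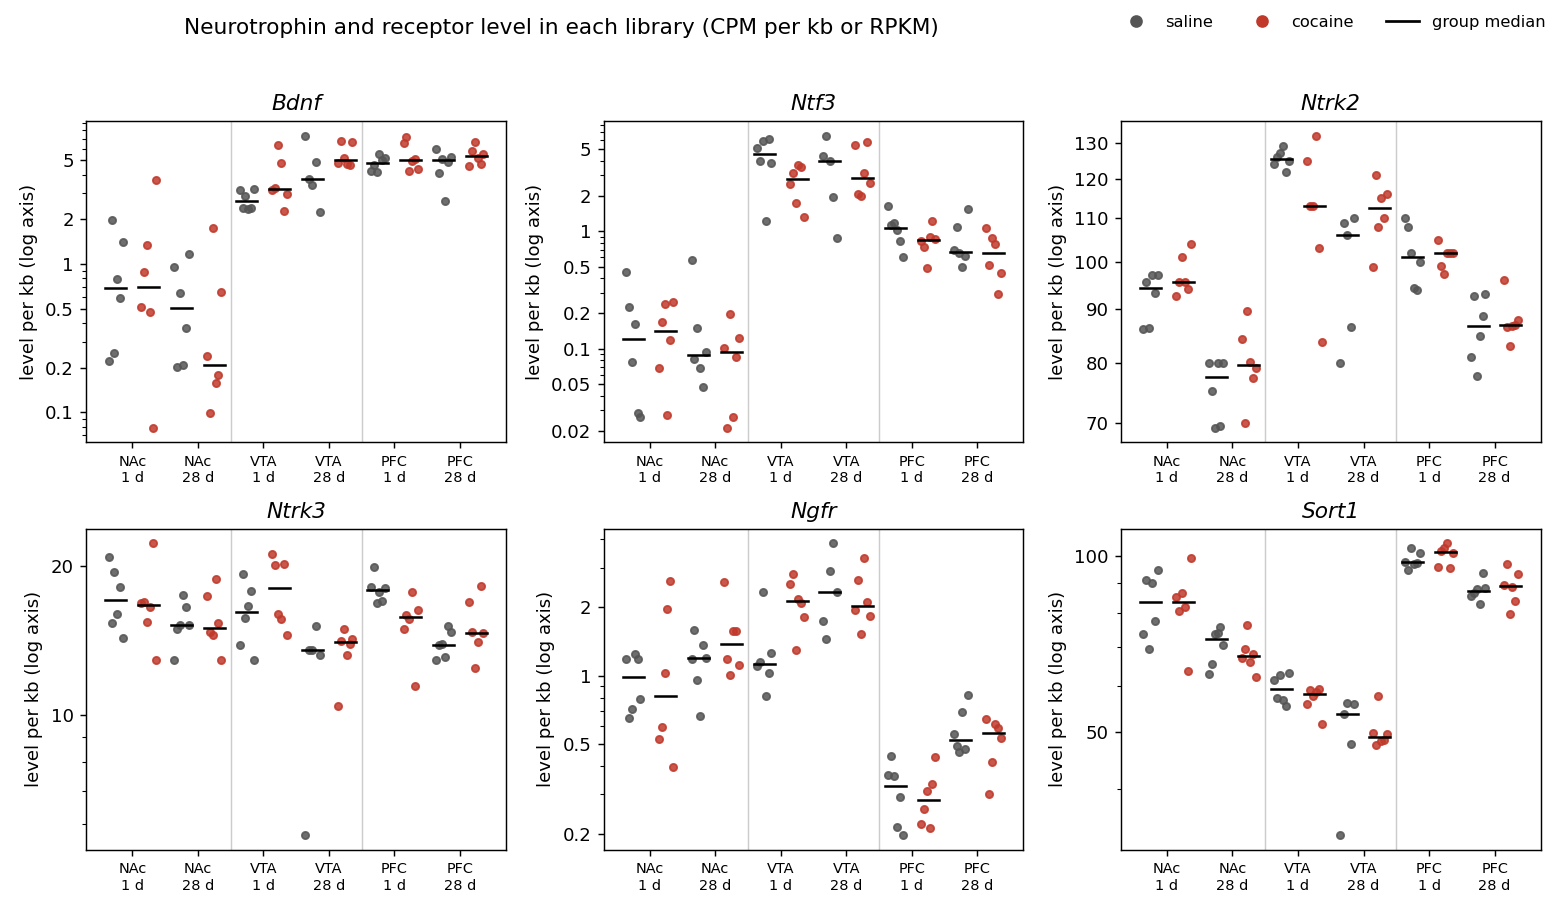
Level of each gene in every library, as CPM per kb (NAc at 1 day and all regions at 28 days) or RPKM (VTA and PFC at 1 day), on log axes that differ between panels. Points are libraries (saline grey, cocaine red) and bars are group medians. Bdnf and Ntf3 are lowest in the NAc, and the saline and cocaine points overlap in every pair.

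The ligands had the largest differences between the NAc and either other region. Bdnf in saline libraries at 28 days ranged from 0.871 to 5.02 CPM in the NAc (median 2.19), while it was 11.8 to 26.2 CPM in the PFC (median 22.4). In the 5 VTA libraries Bdnf ranged from 9.03 to 28.6 CPM, with a median of 15.1. No NAc library reached the level of the lowest VTA or PFC library, and the VTA and PFC ranges overlapped. The log2 fold change of NAc against VTA was -2.77 (SE 0.401, edgeR quasi-likelihood test, adjusted p = 1.01e-05) and that of NAc against PFC was -3.05 (SE 0.395, edgeR adjusted p = 8.38e-06). VTA and PFC differed by -0.27 (SE 0.371, edgeR adjusted p = 0.552) at 28 days. In the saline libraries of 1 day the same difference was -0.92 (SE 0.317, edgeR adjusted p = 0.0154), so the VTA level was below that of the PFC in both sets and passed the test in the set of 1 day.

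Ntf3 was highest in the VTA. Its level ranged from 1.18 to 8.8 CPM there (median 5.31), from 0.738 to 2.3 CPM in the PFC (median 1.0) and from 0.0687 to 0.812 CPM in the NAc (median 0.127). The NAc and VTA ranges were apart, the lowest VTA library lay within the PFC range, and the highest NAc library lay just inside the PFC range. Ntf3 was lower in the NAc than in the VTA by a log2 fold change of -4.28 (SE 0.574, edgeR adjusted p = 4.19e-06) and lower than in the PFC by -2.39 (SE 0.57, edgeR adjusted p = 0.00252). It was higher in the VTA than in the PFC by 1.88 (SE 0.486, edgeR adjusted p = 0.00292). In the NAc these levels rest on few reads, 2 to 27 per saline library at 28 days.

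The Trk receptors differed little between regions. Ntrk2 ranged from 603 to 694 CPM in the NAc, from 626 to 889 in the VTA and from 697 to 835 in the PFC. Saline VTA library 1, at 626 CPM, lay within the NAc range, and the VTA and PFC ranges overlapped. Its log2 fold change was -0.27 for NAc against VTA (SE 0.09, edgeR adjusted p = 0.0139), -0.24 for NAc against PFC (SE 0.0861, edgeR adjusted p = 0.0343) and 0.03 for VTA against PFC (SE 0.0902, edgeR adjusted p = 0.763). Over the main and alternative settings, Ntrk2 for NAc against VTA was -0.41 to -0.27 (edgeR or DESeq2 adjusted p = 3.19e-06 to 0.0209). The call of NAc against PFC was lost in 7 of the 17 fits that left out a single library. Ntrk3 ranged from 42.8 to 59.0 CPM in the NAc, from 17.3 to 47.2 in the VTA and from 44.3 to 52.5 in the PFC. It was higher in the NAc than in the VTA by 0.44 (SE 0.171, edgeR adjusted p = 0.0336), a difference that was 0.20 (edgeR adjusted p = 0.0809) in the saline libraries of 1 day. Saline VTA library 1 held 17.3 CPM, against 41.4 to 47.2 CPM in the other 4, and without it the difference was 0.26 (edgeR adjusted p = 0.00828). The VTA exceeded the PFC in Ntrk2 by 0.20 (SE 0.0501, edgeR adjusted p = 0.00192) in those libraries of 1 day. The other Ntrk3 differences were 0.10 for NAc against PFC (SE 0.162, edgeR adjusted p = 0.671) and -0.34 for VTA against PFC (SE 0.171, edgeR adjusted p = 0.0978), the latter -0.16 without saline VTA library 1.

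Ngfr and Sort1 ran in opposite orders. Ngfr ranged from 4.72 to 12.4 CPM in the VTA (median 7.67), from 2.33 to 5.53 in the NAc (median 4.15) and from 1.67 to 2.95 in the PFC (median 1.88). The VTA and PFC ranges did not overlap. Ngfr was higher in the VTA than in the PFC by a log2 fold change of 1.93 (SE 0.253, edgeR adjusted p = 3.73e-06), higher in the NAc than in the PFC by 0.95 (SE 0.244, edgeR adjusted p = 0.0045) and lower in the NAc than in the VTA by -0.98 (SE 0.245, edgeR adjusted p = 0.00209). The last of these was -0.32 (edgeR adjusted p = 0.232) in the saline libraries of 1 day and -0.49 (edgeR adjusted p = 0.06) in the cocaine libraries of 28 days. Sort1 ranged from 585 to 666 CPM in the PFC, from 429 to 522 in the NAc and from 209 to 360 in the VTA, with no overlap between regions. It was lower in the VTA than in the PFC by -0.98 (SE 0.111, edgeR adjusted p = 6.71e-07), lower in the NAc than in the PFC by -0.36 (SE 0.104, edgeR adjusted p = 0.0096) and higher in the NAc than in the VTA by 0.62 (SE 0.11, edgeR adjusted p = 9.56e-05).

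In all, 6 of the 6 genes passed the test for NAc against VTA, where 62.5% of the 17181 genes tested did. For NAc against PFC 5 passed, against 40.7% of all genes, and for VTA against PFC 3 passed, against 57.8%. The labels name no batch, and region and any difference in handling between regions cannot be told apart.

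**Figure D2:**
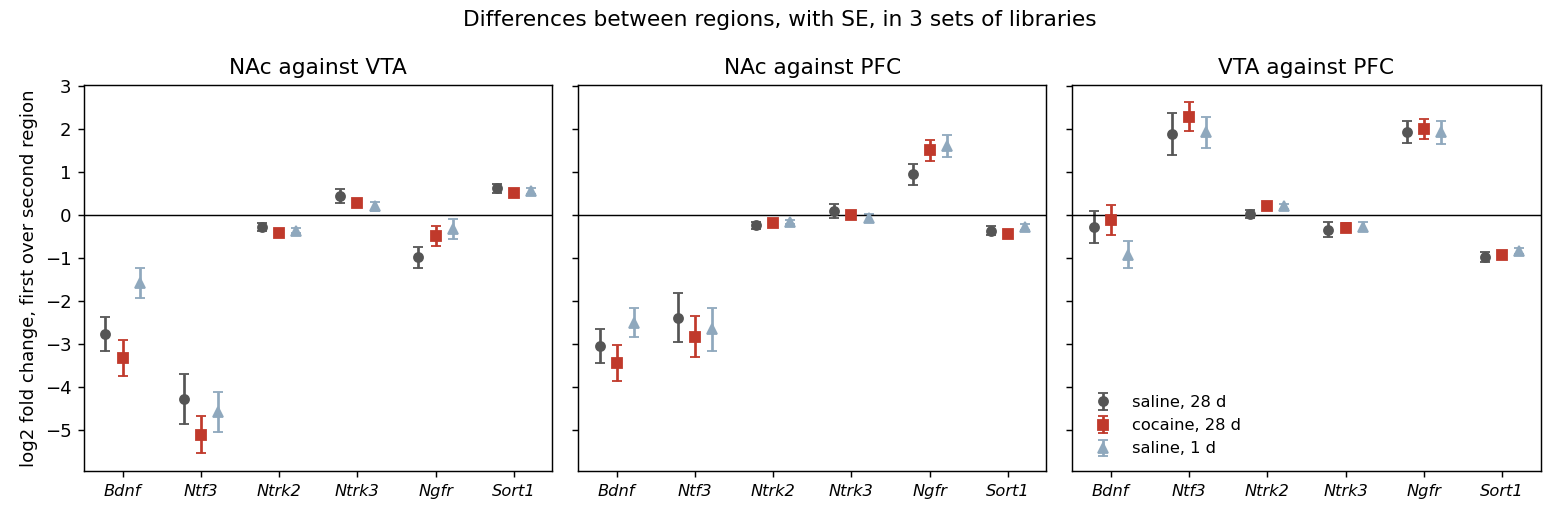
Log2 fold change between regions, first over second, with its SE from edgeR, for each gene in the saline libraries of 28 days (circles), the cocaine libraries of 28 days (squares) and the saline libraries of 1 day (triangles). Bdnf and Ntf3 are below 0 for the NAc in all 3 sets, and the estimates of Ntrk2 and Ntrk3 lie within -0.41 to 0.44.

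The study asked how transcription changes between early and late abstinence from cocaine. None of the 6 genes passed the test of cocaine against saline in any region at either time. Of the 36 gene and group comparisons 33 were tested. Ntf3 in the NAc at both times and Ngfr in the PFC at 1 day fell below the filters on low values. None had an adjusted p under 0.05, by edgeR for counts or by limma for RPKM, and the lowest was 0.194. DESeq2, run on the counts, called none either. At an unadjusted p under 0.05 there were 2, Ngfr in the VTA and Ntrk3 in the PFC, each at 1 day. Among all genes, 0.0126% passed the adjusted threshold in the NAc at 1 day, 0.186% in the VTA at 1 day and 0.00693% in the PFC at 1 day, and 0.0% passed it in each region at 28 days. At an unadjusted p under 0.05, 11.1% of all genes were higher and 4.29% lower after cocaine in the VTA at 1 day, and 1.64% higher and 2.5% lower in the PFC at 1 day.

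In the VTA at 1 day, Ngfr was 1.3 to 2.82 RPKM after cocaine (median 2.14) and 0.81 to 2.35 RPKM after saline (median 1.13). The saline mean of 1.28 RPKM was exceeded in 6 of 6 cocaine libraries, 2 of them above every saline library. Saline library 3, at 2.35 RPKM, stood apart from the other saline libraries, which reached 1.26 RPKM. The log2 fold change, on the scale of log2(RPKM + 0.1), was 0.72 (SE 0.23, limma adjusted p = 0.194), and without that library it was 0.90 (limma adjusted p = 0.0822). Leaving out each library in turn gave 0.62 to 0.90 (limma adjusted p = 0.0822 to 0.361). Over the alternative settings the estimate ranged from 0.46 to 1.06 (limma or edgeR adjusted p = 0.132 to 0.604). In these VTA libraries of 1 day 6 markers of meninges and perivascular fibroblasts summed to 53.9 to 433 RPKM after cocaine and 18.1 to 108 RPKM after saline, with 5 of 6 higher at an unadjusted p under 0.05, and 7 microglia markers summed to 70.6 to 115 RPKM and 109 to 163 RPKM, with 6 of 7 lower. None of these markers had an adjusted p under 0.05 by limma, and their part in the difference of Ngfr was not tested. At 28 days the same receptor was 5.25 to 11.4 CPM after cocaine (median 6.98). The 5 saline libraries held 6.05, 4.99, 10.0, 13.2 and 8.12 CPM. The cocaine libraries lay within the saline range, with a log2 fold change of -0.15 (SE 0.259, edgeR adjusted p = 0.819).

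In the PFC at 1 day, Ntrk3 was 11.4 to 17.7 RPKM after cocaine (median 15.7) and 16.8 to 19.9 RPKM after saline (median 17.9). Each of the 6 cocaine libraries was under the saline mean of 17.9 RPKM, and 5 were below every saline library. Ntrk3 thus differed by a log2 fold change of -0.24 (SE 0.0918, limma adjusted p = 0.918). At 28 days Ntrk3 in the PFC was 41.0 to 60.4 CPM after cocaine (median 48.6) and 42.7 to 50.2 CPM after saline (median 45.9). The groups overlapped and the log2 fold change was 0.12 (SE 0.0805, edgeR adjusted p = 0.861).

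Bdnf, the ligand of TrkB, had the widest errors of the 5 genes tested in the NAc. In the NAc at 1 day it was 0.337 to 15.8 CPM after cocaine (median 2.99) and 0.943 to 8.42 CPM after saline (median 2.96), a span of 46.9-fold from the lowest to the highest library. Cocaine over saline gave 0.44 on the log2 scale (SE 0.685, edgeR adjusted p = 1.0), and it was -0.39 without cocaine library 6, which held the 15.8 CPM. At 28 days NAc Bdnf was 0.426 to 7.52 CPM after cocaine (median 0.895) and 0.865 to 4.98 CPM after saline (median 2.16), with a log2 fold change of -0.18 (SE 0.637, edgeR adjusted p = 0.975). Differences of the size of these SEs could not be detected in the NAc.

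In the VTA at 1 day Bdnf was 2.29 to 6.4 RPKM after cocaine (median 3.2) and 2.34 to 3.23 RPKM after saline (median 2.65). Of the cocaine libraries, 3 lay above every saline library and 1 below. This was a log2 fold change of 0.39 (SE 0.211, limma adjusted p = 0.399). At 28 days VTA Bdnf was 20.0 to 28.8 CPM after cocaine (median 21.4), and the 5 saline libraries held 31.2, 16.0, 14.7, 20.8 and 9.57 CPM. All cocaine libraries lay within the saline range, with a log2 fold change of 0.34 (SE 0.246, edgeR adjusted p = 0.551). Without saline library 1, which held the 31.2 CPM, the log2 fold change was 0.62 (edgeR adjusted p = 0.145).

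In the PFC Bdnf was 4.25 to 7.22 RPKM after cocaine and 4.16 to 5.49 RPKM after saline at 1 day, with a log2 fold change of 0.15 (SE 0.13, limma adjusted p = 0.918). At 28 days it was 19.7 to 28.5 CPM after cocaine (median 22.8) and 11.3 to 25.3 CPM after saline (median 21.4), with a log2 fold change of 0.22 (SE 0.153, edgeR adjusted p = 0.863). The lowest saline value, 11.3 CPM, was that of saline library 4, the library with medium spiny neuron markers. With the level of those markers as a covariate the log2 fold change was 0.09 (SE 0.0981, edgeR adjusted p = 0.979). The point estimate of Bdnf was above 0 in the VTA and PFC at both times, and none of these estimates passed the test.

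Ntf3, the ligand of TrkC, was 1.32 to 3.69 RPKM in the VTA after cocaine at 1 day (median 2.82) and 1.22 to 6.13 RPKM after saline (median 4.58). Each of the 6 cocaine libraries was under the saline mean of 4.36 RPKM but inside the saline range. That made a log2 fold change of -0.63 (SE 0.377, limma adjusted p = 0.458). At 28 days VTA Ntf3 was 2.89 to 8.32 CPM after cocaine, the saline libraries held 6.24, 9.3, 5.68, 2.8 and 1.25 CPM, and the log2 fold change was 0.00 (SE 0.452, edgeR adjusted p = 0.999). In the PFC the log2 fold change of Ntf3 was -0.30 (SE 0.216, limma adjusted p = 0.918) at 1 day and -0.36 (SE 0.321, edgeR adjusted p = 0.886) at 28 days. In the NAc, where it was not tested, Ntf3 was 0.0387 to 0.358 CPM after cocaine and 0.0373 to 0.65 CPM after saline at 1 day, 1 to 20 reads per library.

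Ntrk2, the receptor of BDNF, was measured with small error. In the NAc it was 792 to 891 CPM after cocaine and 737 to 831 CPM after saline at 1 day, a log2 fold change of 0.07 (SE 0.0564, edgeR adjusted p = 1.0). At 28 days it was 599 to 766 CPM after cocaine and 593 to 685 CPM after saline, a log2 fold change of 0.08 (SE 0.0627, edgeR adjusted p = 0.847). PFC Ntrk2 had a log2 fold change of 0.00 (SE 0.0524, limma adjusted p = 0.998) at 1 day and 0.03 (SE 0.0535, edgeR adjusted p = 0.95) at 28 days. In the VTA the estimates had opposite signs. At 1 day Ntrk2 was 83.7 to 132 RPKM after cocaine (median 113) and 122 to 129 RPKM after saline (median 125), with 4 of the 6 cocaine libraries below every saline library and 1 above. The saline libraries lay within a 1.05-fold range and the cocaine libraries within a 1.57-fold range. Ntrk2 differed by a log2 fold change of -0.18 (SE 0.0943, limma adjusted p = 0.38). At 28 days VTA Ntrk2 was 846 to 1030 CPM after cocaine (median 966), and the saline libraries held 684, 933, 909, 741 and 942 CPM, with 4 of the 6 cocaine libraries above every saline library. The log2 fold change was 0.18 (SE 0.0965, edgeR adjusted p = 0.465).

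Sort1 had small estimates. Its log2 fold change lay between -0.06 and 0.03 in the 6 comparisons, with SEs of 0.045 to 0.121. In the PFC at 1 day it was 95.2 to 105 RPKM after cocaine and 94.6 to 103 RPKM after saline. In the VTA at 28 days, where the SE was largest, it was 324 to 394 CPM after cocaine, and the saline libraries held 228, 366, 383, 325 and 381 CPM. The low value of 228 CPM was that of saline library 1, which was also lowest for Ntrk3, at 18.9 CPM against 43.8 to 50.1 CPM in the other saline libraries, and for Ntrk2, at 684 CPM. The log2 fold change of Ntrk3 in the VTA was 0.16 (SE 0.124, limma adjusted p = 0.589) at 1 day and 0.14 (SE 0.201, edgeR adjusted p = 0.766) at 28 days, and the latter was -0.03 without saline library 1. The 7 cortical excitatory markers summed to 70.7 to 114 CPM in these VTA libraries after cocaine and to 102 to 295 CPM after saline, with 3 of 6 tested lower at an unadjusted p under 0.05. With them as a covariate the VTA estimates at 28 days were 0.67 for Ntrk3 (SE 0.241, edgeR adjusted p = 0.185), 0.27 for Sort1 (SE 0.156, edgeR adjusted p = 0.352) and 0.01 for Bdnf (SE 0.299, edgeR adjusted p = 0.992). In the NAc Ntrk3 differed by -0.05 (SE 0.12, edgeR adjusted p = 1.0) at 1 day and by 0.02 (SE 0.0899, edgeR adjusted p = 0.979) at 28 days. NAc Ngfr differed by 0.30 (SE 0.41, edgeR adjusted p = 1.0) and 0.38 (SE 0.237, edgeR adjusted p = 0.812) at these times, and PFC Ngfr at 28 days by -0.18 (SE 0.201, edgeR adjusted p = 0.912).

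Several estimates that did not pass changed in size, but not in sign, when a single library was left out. At 1 day in the VTA, the estimate of Bdnf was 0.23 without cocaine library 3, that of Ntrk2 was -0.10 without cocaine library 6, and that of Ntf3 was -0.95 without saline library 4. In the PFC, the estimate of Ntrk3 at 1 day was -0.15 without cocaine library 5, that of Ntf3 at 28 days was -0.11 without saline library 6, and that of Bdnf at 28 days was 0.10 without saline library 4. That of Ngfr in the NAc at 28 days was 0.14 without cocaine library 1.

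**Figure D3:**
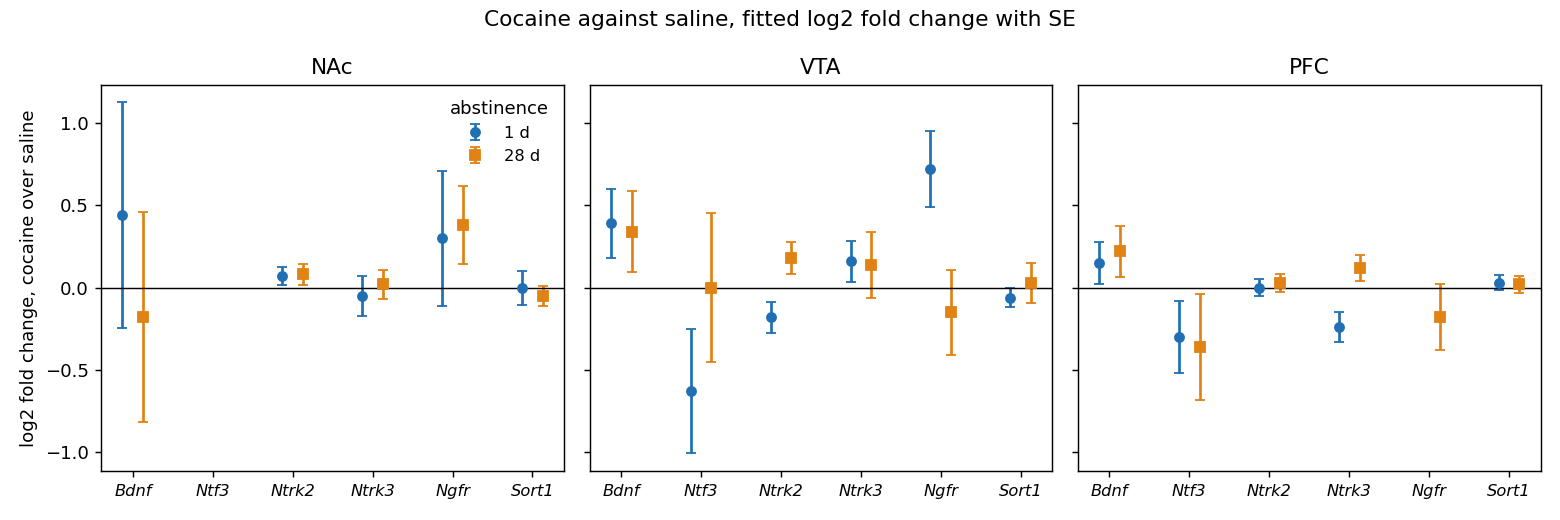
Log2 fold change of cocaine over saline with its SE for each gene in the NAc, VTA and PFC, at 1 day (circles) and 28 days (squares) of abstinence, from edgeR for counts and limma for RPKM. The largest estimate is that of Ngfr in the VTA at 1 day, 0.72, and the widest error is that of Bdnf in the NAc. Genes without a point were below the filter on low values.

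Whether the cocaine difference changed between 1 and 28 days was tested as an interaction. In the NAc no gene of the 5 tested passed, with differences of -0.61 for Bdnf (SE 1.0, edgeR adjusted p = 0.999) and between -0.04 and 0.08 for the receptors, where 0.0181% of all genes passed and 5.27% had an unadjusted p under 0.05. For the VTA and PFC the fit was added after the data were seen and used reads recovered from the RPKM values. In the VTA the log2 fold change of Ntrk2 was higher at 28 days than at 1 day by 0.39 (SE 0.133, edgeR adjusted p = 0.176), and that of Ngfr was lower by -0.84 (SE 0.37, edgeR adjusted p = 0.277). In the PFC the log2 fold change of Ntrk3 was higher at 28 days by 0.34 (SE 0.126, edgeR adjusted p = 0.985). None passed the adjusted threshold, which 0.0% of all genes passed in the VTA and 0.00604% in the PFC, although the unadjusted p of each of these 3 was under 0.05, and at an unadjusted p under 0.05 were 15.6% of all genes in the VTA and 4.85% in the PFC.

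The spread between libraries of Bdnf in the NAc and of Ntf3 in the VTA ran with markers of particular neurons. The summed level of 7 markers of cortical excitatory neurons, such as the vesicular glutamate transporter Slc17a7, ranged from 12.5 to 951 CPM over the NAc libraries of 1 day and from 14.1 to 658 CPM over those of 28 days. None of these markers was at 0 in a whole group. On a log2 scale, Bdnf followed this sum at 1 day with Pearson's r = 0.933 (permutation p = 1e-05, the smallest the permutations can give, adjusted p = 0.00096, n = 12) and Spearman's rho = 0.986 (permutation p = 1e-05, adjusted p = 0.00144). Without the 2 libraries farthest from the median r was 0.944, and it was 0.974 within the cocaine and 0.913 within the saline libraries. At 28 days r was 0.9 (permutation p = 8e-05, adjusted p = 0.00288, n = 12), rho was 0.909 (permutation p = 0.0001, adjusted p = 0.0036), and r without the 2 farthest libraries was 0.929. The library highest in Bdnf at each time, cocaine library 6 at 1 day and cocaine library 3 at 28 days, was also highest in these markers, at 951 and 658 CPM. With the markers as a covariate, the log2 fold change of Bdnf after cocaine was 0.23 (SE 0.218, edgeR adjusted p = 0.978) at 1 day and 0.26 (SE 0.232, edgeR adjusted p = 0.757) at 28 days. The sign at 28 days was thus opposite to that without the covariate, and neither passed. Outside the NAc no relation of Bdnf with the cortical markers passed. In the VTA r was 0.58 at 1 day and -0.462 at 28 days, and in the PFC -0.0238 and 0.775. For the PFC at 28 days rho was 0.336, and r was -0.29 without the 2 farthest libraries.

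In the NAc at 1 day Ntrk3 ran against the cortical markers (r = -0.915, rho = -0.909, permutation p = 2e-05 and 0.00016, adjusted p = 0.00096 and 0.00461, n = 12, r = -0.822 without the 2 farthest libraries). Sort1 ran with them (r = 0.858, rho = 0.888, permutation p = 0.00049 and 0.00028, adjusted p = 0.0118 and 0.00672, n = 12, r = 0.803 without the 2 farthest). At 28 days neither passed: for Ntrk3 r was -0.715 and rho -0.678 (permutation p = 0.00873 and 0.0186, adjusted p = 0.0645 and 0.158, n = 12, r = -0.589 without the 2 farthest), and for Sort1 r was 0.0872 and rho 0.112 (permutation p = 0.785 and 0.734, adjusted p = 0.897 and 0.927, n = 12, r = -0.286 without the 2 farthest). Bdnf also ran against 4 cholinergic neuron markers in the NAc, with r = -0.951 (rho = -0.944, permutation p = 2e-05 and 3e-05, adjusted p = 0.00096 and 0.00216, n = 12, r = -0.94 without the 2 farthest) at 1 day. Ntrk3 ran with the cholinergic markers in the NAc at 1 day (r = 0.873, rho = 0.832) and 28 days (r = 0.756, rho = 0.797). It also did so in the VTA at 1 day (r = 0.841, rho = 0.804). Each of these had a permutation adjusted p under 0.05 by both coefficients. For Ntrk3 in the VTA at 28 days r was -0.42, and in the PFC 0.691 at 1 day and -0.355 at 28 days, none passing. All points of a region share its dissection, and the marker sums are not independent of each other. Relations were sought for 6 genes, 4 marker lists and 6 tables, 144 in all, after the levels had been seen, and 12 had an adjusted p under 0.05 by both coefficients.

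In the VTA Ntf3 followed 7 markers of dopamine neurons, such as tyrosine hydroxylase, Th. At 1 day r was 0.768 (permutation p = 0.00302, adjusted p = 0.0344, n = 12), rho was 0.839 (permutation p = 0.00117, adjusted p = 0.0236), and r was 0.727 without the 2 farthest libraries. Within the saline libraries r was 0.983, and within the cocaine libraries 0.271. At 28 days r was 0.866 (permutation p = 0.00067, adjusted p = 0.0138, n = 11), rho was 0.936 (permutation p = 6e-05, adjusted p = 0.00288), and r was 0.885 without the 2 farthest. The summed markers at 1 day were 423 to 1030 RPKM after cocaine and 663 to 1690 RPKM after saline, with 4 of the 6 tested markers lower at an unadjusted p under 0.05 and 0 at an adjusted p. With them as a covariate the log2 fold change of Ntf3 after cocaine at 1 day was 0.05 (SE 0.342, limma adjusted p = 0.961) in place of -0.63. The same covariate moved that of Ngfr to 1.06 (SE 0.241, limma adjusted p = 0.132). The part of the dissection in these differences was not tested.

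**Figure D4:**
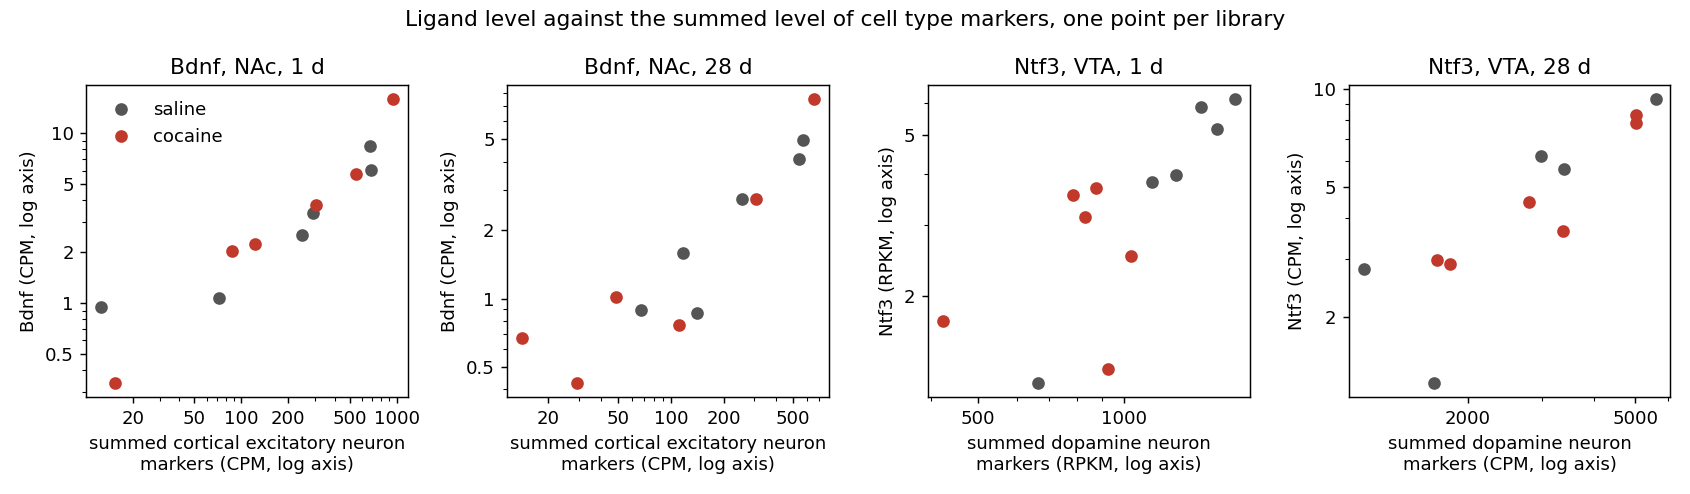
Bdnf in the NAc against the summed cortical excitatory neuron markers, and Ntf3 in the VTA against the summed dopamine neuron markers, at 1 and 28 days, in CPM or RPKM on log axes. Each point is a library (saline grey, cocaine red). Bdnf rises with the cortical markers over both groups, and the cocaine libraries of the VTA at 1 day sit at 423 to 1030 RPKM of dopamine markers.

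The wider pathway was described with 69 listed genes, of which 68 were found. None passed the test of cocaine against saline in any region at either time, by edgeR or limma. At an unadjusted p under 0.05, 5 of 67 were higher and 0 lower in the NAc at 1 day, 8 and 2 of 65 in the VTA at 1 day, 5 and 1 of 65 in the PFC at 1 day, 4 and 2 of 67 in the NAc at 28 days, 7 and 4 of 65 in the VTA at 28 days, and 2 and 1 of 66 in the PFC at 28 days. The median log2 fold change of the listed genes in these comparisons, in the same order, was 0.05, 0.05, -0.01, 0.00, -0.01 and 0.02, beside 0.00, 0.03, -0.01, 0.00, -0.03 and 0.00 over all genes tested. Of all genes, at an unadjusted p under 0.05, 2.76% were higher and 1.25% lower in the NAc at 1 day, 3.34% and 3.42% in the NAc at 28 days, 5.08% and 6.39% in the VTA at 28 days, and 2.69% and 2.97% in the PFC at 28 days.

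Among the listed pathway genes, those that neurotrophins and neuronal activity induce carried the smallest p-values at 1 day in the NAc and PFC. The immediate early transcription factor Fos in the NAc was 3.03 to 11.8 CPM after cocaine (median 4.8) and 2.54 to 3.74 CPM after saline (median 2.89), a log2 fold change of 0.95 (SE 0.267, edgeR adjusted p = 0.95). Fos in the PFC was 2.46 to 8.04 RPKM after cocaine and 1.95 to 3.02 RPKM after saline, a log2 fold change of 0.74 (SE 0.236, limma adjusted p = 0.918). The zinc finger factor Egr2 differed by 0.87 in the NAc (SE 0.272, edgeR adjusted p = 0.99) and by 0.93 in the PFC (SE 0.339, limma adjusted p = 0.918). Of the 10 induced genes, 4 were higher at an unadjusted p under 0.05 in the NAc and 4 in the PFC at 1 day, against 2.76% and 1.64% of all genes. For the VTA at 1 day it was 3 of the 8 tested, with a median log2 fold change of 0.42, against 11.1% of all genes. At 28 days it was 1 of 10 in the NAc, 1 of 10 in the PFC and 0 of 8 in the VTA. None of the induced genes passed the adjusted threshold. The list was chosen with earlier results of these data known, so these counts are not a test of the set.

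In the VTA at 1 day Sorcs1 was 6.45 to 12.9 RPKM after cocaine and 5.02 to 8.64 RPKM after saline, a log2 fold change of 0.64 (SE 0.181, limma adjusted p = 0.155). At 28 days Sorcs2, which binds the BDNF precursor with p75NTR, was 82.3 to 121 CPM in the VTA after cocaine (median 107) and 72.8 to 83.4 CPM after saline (median 76.8), a log2 fold change of 0.44 (SE 0.102, edgeR adjusted p = 0.389). In the NAc at 28 days Sorcs3 was 57.9 to 68.4 CPM after cocaine and 43.2 to 55.4 CPM after saline, a log2 fold change of 0.28 (SE 0.0654, edgeR adjusted p = 0.592). Maged1, a p75NTR-binding protein, differed by 0.21 there (SE 0.0489, edgeR adjusted p = 0.592). The adaptors Sh2b2 in the VTA (0.40, SE 0.113, edgeR adjusted p = 0.389) and Gab2 in the PFC (-0.16, SE 0.0494, edgeR adjusted p = 0.842), and the activity-dependent factor Npas4 in the PFC (0.72, SE 0.289, edgeR adjusted p = 0.842), completed the smallest p-values of the listed genes at 28 days.

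Between regions some of the listed genes passed the test, as did a large share of all genes. That share was 62.5% for NAc against VTA, 40.7% for NAc against PFC and 57.8% for VTA against PFC. The counts that follow are thus not read as a trait of the list. In saline libraries at 28 days, 29 of 67 were higher and 14 lower in the NAc than in the VTA, 9 higher and 13 lower in the NAc than in the PFC, and 14 higher and 33 lower in the VTA than in the PFC (edgeR, adjusted p under 0.05). All genes divided as 29.8% and 32.6%, 20.0% and 20.7%, and 29.8% and 28.1% in these comparisons. The 10 induced genes had a median log2 fold change of 2.71 for NAc against VTA and -2.74 for VTA against PFC, beside -0.03 and 0.02 over all genes. Neuropeptide Y, Npy, was 58.3 ± 8.42 CPM in the NAc (SD, n = 6), 1.57 ± 1.26 in the VTA (n = 5) and 60.8 ± 6.92 in the PFC (n = 6). Cortistatin, Cort, was 1.92 ± 1.64, 0.062 ± 0.0316 and 7.61 ± 2.42 CPM in the same order. The immediate early genes Egr1, at 178, 16.8 and 212 CPM on average, and Egr2, at 4.88, 0.286 and 3.41 CPM, were likewise lowest in the VTA. Rtn4r, the Nogo receptor that can pair with p75NTR, was lower in the NAc than in the PFC by -3.18 (SE 0.347, edgeR adjusted p = 1.37e-06).

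The genes most like each member were ranked by Pearson's r of log2(CPM + 0.5) among 17679 genes, as a description without a test. Over the 17 saline libraries of 28 days, which mix region and library differences, they were Fkbp1b (0.963), Yipf2 (0.962) and Stmn2 (0.96) for Bdnf. For Ntf3 they were Ntsr1 (0.972), the neurotensin receptor, Cd200 (0.956) and Nxph1 (0.956), and for Sort1 Lrrc8b (0.987), Ulk2 (0.986) and Tecpr2 (0.984). For Ntrk2 the first was Exoc6b (0.898), for Ntrk3 Ralgapb (0.962) and for Ngfr Gng5 (0.932).

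With the group means taken off, over the 35 libraries of 28 days, the first for Bdnf were Adcyap1 (0.925), which encodes the neuropeptide PACAP, Ncald (0.892) and C1ql3 (0.886). For Ntf3 they were Adrb3 (0.849), Cldn2 (0.848) and Tspan6 (0.837), and for Ntrk2 Fmn2 (0.83), Arhgef26 (0.801) and Ank2 (0.788). For Ntrk3 they were Tnks (0.935), Ncoa2 (0.935) and Syn3 (0.93). Ngfr had no gene above 0.691, the value of Grem1. For Sort1 the first was again Lrrc8b (0.91). These libraries share depth and dissection within a region, which enter every such value.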

How the data were processed

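RNA-seq was measured in 71 libraries of 12 groups, assigned by the labels. The 28-day column names give the group but not the labelled sample, so those libraries carry only a number. A further 30 columns belong to no sample here and were not used, nor were the authors' fold changes and p-values of cocaine against saline. The authors ran STAR 2.4.1d against mm9, using Ensembl gene models, and deposited unnormalised counts per gene for 4 tables and values taken to be RPKM, from their values, for the VTA and PFC at 1 day. The counting program and strand are not given in the sources used here.

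Counts were tested with edgeR 4.0.16 (R 4.3.3), after filterByExpr (minimum count 10, total 15) and TMM, by the quasi-likelihood test, and RPKM with limma 3.58.1 as log2(RPKM + 0.1), a scale that understates changes of low genes, leaving out genes whose mean was under 0.5. p-values were adjusted by Benjamini-Hochberg over all genes tested, two-sided, at 0.05. edgeR SEs come from the F statistic. Reads were recovered from RPKM as whole multiples of the value of 1 read (100.0% of 23806 and 23353 genes within 0.001 read). Regions were compared in 1 edgeR fit over the 17 saline libraries of 28 days, and, for the saline libraries of 1 day, with recovered reads. Libraries of different regions may come from the same mice, which the labels do not say and this fit does not take into account. Correlations used 100000 permutations, two-sided. Levels per kilobase used the length behind the RPKM. The steps were tested on simulated data.

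The members and gene lists were chosen with earlier results of these data known. In the text, all 6 members were named, with pathway genes past the threshold or the 2 smallest p-values per cocaine comparison, the 3 largest called fold changes per region pair, and the 3 most alike genes. Some genes this rule names are not reported here. Alternatives were DESeq2 1.42.0, other size factors, no filter, a pseudocount of 1, the replicate number as a block, marker covariates and leaving out each library.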

Additional observations from a re-analysis of the deposited data

Results flagged for a closer look

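In 72 groups of 5 or 6 libraries of a gene, 8 held a library far from the others, where chance is taken to flag about 1 in 20 groups. That rate is for independent groups, and the genes here share libraries, so no excess over chance can be read from it. Bdnf in the NAc was highest in cocaine library 6 at 1 day, at 15.8 CPM against 0.337 to 5.76 CPM in the others, and in cocaine library 3 at 28 days, at 7.52 CPM against 0.426 to 2.75 CPM. Ngfr in the NAc at 28 days was 8.93 CPM in cocaine library 1, against 3.48 to 5.44 CPM. Ngfr in the VTA at 1 day was 2.35 RPKM in saline library 3, against 0.81 to 1.26 RPKM. Ntf3 in the NAc at 28 days was 0.812 CPM in saline library 1, against 0.0678 to 0.214 CPM. Ntrk2 in the PFC at 28 days was 822 CPM in cocaine library 1, against 710 to 752 CPM. Ntrk3 in the VTA at 28 days was 18.9 CPM in saline library 1, against 43.8 to 50.1 CPM. Sort1 in the VTA at 28 days was 394 CPM in cocaine library 3, against 324 to 340 CPM.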

How the results depend on the processing

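Under every alternative and with any library left out, 0 of the 6 genes had an adjusted p under 0.05 for cocaine against saline. The lowest adjusted p was 0.0822 (limma), among 735 estimates of single genes that include those of the change with time. Of 175 alternatives for single genes in the cocaine and time comparisons 166 kept their direction and their side of the threshold, and 9 changed sign, the calls of none being affected. Between regions 91 of 108 did. For VTA against PFC 5 genes passed in the cocaine libraries of 28 days and 6 in the saline libraries of 1 day, in place of 3. Ntrk3 for NAc against PFC was 0.00 and -0.07 (log2) in these sets. With the replicate number as a block, added after seeing the data, the libraries of 1 day gave 4 (NAc against VTA), 5 (NAc against PFC) and 6 genes (VTA against PFC), and -0.08 for Ntrk3 for NAc against PFC. The Ntrk2 call for NAc against PFC was lost without a filter on low counts (-0.23, edgeR adjusted p = 0.0544). Leaving out single libraries gave 4 to 5 genes for NAc against PFC.

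These cocaine estimates (log2) changed sign: Sort1 in the NAc at 1 day with the replicate number as a block, 0.00, and Ntrk2 in the PFC at 1 day by edgeR on recovered reads, 0.01. The covariates at 28 days, and the dopamine covariates, were chosen after seeing the data. With cortical markers, Bdnf and Ntrk3 in the NAc at 28 days were 0.26 and -0.07, and Ntf3 and Ngfr in the VTA at 28 days -0.90 and 0.34. With dopamine markers, Ntf3 in the VTA was 0.05 at 1 day and -0.13 at 28 days, and with medium spiny neuron markers Sort1 in the PFC at 28 days was 0.00. The cause was not tested.

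Leaving out single libraries gave ranges that include a change of sign. In the NAc at 1 day they were -0.39 to 0.86 for Bdnf, -0.09 to 0.48 for Ngfr, -0.14 to 0.02 for Ntrk3 and -0.06 to 0.07 for Sort1, and at 28 days -1.07 to 0.12 for Bdnf and -0.04 to 0.07 for Ntrk3. In the PFC they were -0.02 to 0.02 for Ntrk2 at 1 day, and 0.00 to 0.05 for Ntrk2 and -0.01 to 0.05 for Sort1 at 28 days. In the VTA at 28 days they were -0.24 to 0.35 for Ntf3, -0.03 to 0.24 for Ntrk3, -0.29 to 0.08 for Ngfr and -0.08 to 0.08 for Sort1. For the change with time in the NAc they were -1.49 to 0.22 for Bdnf, -0.14 to 0.49 for Ngfr, -0.01 to 0.06 for Ntrk2 and -0.10 to 0.03 for Sort1, and for Ntrk2 between VTA and PFC -0.01 to 0.11.

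Same-numbered libraries of 1 day correlated from -0.57 to 0.71 in the NAc, -0.3 to 0.5 in the VTA and -0.2 to 0.11 in the PFC. In these regions 2, 2 and 0 of 6 correlated best with their own number. With 6 pairs per region this cannot settle whether the numbers pair libraries. The replicate block called 0 genes, with 0.72 for Ngfr in the VTA (limma adjusted p = 0.249) and -0.24 for Ntrk3 in the PFC (limma adjusted p = 0.95). No paired analysis was possible because the columns carry no labelled number in any comparison that uses the libraries of 28 days. Read depth limits Ntf3 in the NAc, at 1 to 27 reads. Ngfr in the PFC at 1 day, at 19 to 38 reads, was left out by the filter on mean RPKM. Its recovered reads did enter the fit of the change with time.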
